A study of Mus musculus with 4 samples.

Results

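The type 17 cytokine axis was read by single-cell RNA-seq in nasal mucosal CD45+ cells of mice as 8 genes chosen by symbol, of 27998 genes listed. The cytokines were Il17a, Il17f and Il22, the receptor and the ligand subunit of IL-23 were Il23r and Il23a, the chemokine receptor and its ligand were Ccr6 and Ccl20, and the receptor of IL-17 was Il17ra. All 8 symbols were found, each in 1 row. The series describes a ribavirin spray, an antiviral given against viruses that live in the nose, in a model of allergic rhinitis in which OVA, ovalbumin, is the allergen. There were 4 groups with 1 library each, namely Vehicle, Vehicle-OVA, Ribavirin and Ribavirin-OVA, so that OVA was compared under vehicle and under ribavirin and ribavirin was compared without and with OVA. All groups were C57BL/6 mice aged 8 weeks and all cells were taken from nasal mucosa as CD45+ cells, per the labels. The study's methods describe intraperitoneal sensitization and intranasal challenge with OVA. The dose and timing of ribavirin, the composition of the vehicle and the number of mice in a library are not given in the sources used here. Because a group was 1 library, no test across animals could be made, and every interval printed is a 95% interval that covers counting error only.

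IL-23, a dimer of the subunits encoded by Il23a and Il12b, is made by myeloid cells and acts through the receptor of Il23r on type 17 lymphocytes. These cells, which are helper T cells, gamma delta T cells and innate lymphocytes, secrete IL-17A, IL-17F and IL-22. They follow CCL20, a chemokine of epithelium, through CCR6. IL-17A and IL-17F act on IL-17RA, which nearly every cell can carry, and drive the release of neutrophil chemokines and antimicrobial proteins at mucosal surfaces, while IL-22 acts on epithelium.

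Where 4 values follow each other without names, the order of the libraries is Vehicle, then Vehicle-OVA, then Ribavirin, then Ribavirin-OVA. After filtering, 24371 Vehicle, 17232 Vehicle-OVA, 19660 Ribavirin and 8768 Ribavirin-OVA cells were kept. The median was 3389 to 4952 UMIs (unique molecular identifiers, counted mRNA molecules) per deposited barcode. The lowest barcode held 1782 UMIs in the Ribavirin library and 500 to 501 in the others. Pairs of libraries shared 57 to 174 barcode sequences, at most 0.909% of a library. A UMI of Ptprc, which encodes CD45, was found in 86.0% to 90.7% of the cells, and in 37.3% to 57.5% of those called epithelial-like. The cells fell into 34 clusters, clustered without the 8 genes and named from marker genes as 13 classes with the ending -like, others remaining as numbered clusters. Clusters 4 and 5 came mostly from 1 library, with 4482 of 4616 and 3820 of 4534 cells from Vehicle-OVA, and may be that library and not a type. Cluster 4 was neutrophil-like and led with Serpinb2, Csf3 and Cxcl3, and cluster 5 led with the heat shock genes Hspa1b and Hspa1a and was unnamed. Smaller clusters also came mostly from 1 library. Among them were cluster 22 (545 of 607 cells from Ribavirin-OVA), cluster 25 (476 of 494 from Ribavirin) and cluster 26 (284 of 293 from Vehicle-OVA).

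Il17a and Il17f are neighbours on chromosome 1, 42649 bases apart (GRCm38, GENCODE vM21). Il17a is at chr1:20730905-20734496 on the plus strand and Il17f at chr1:20777146-20790617 on the minus strand. Il22 is at chr10:118204942-118210047 (plus) and Il23a at chr10:128296139-128298752 (minus). Il23r is at chr6:67422932-67491855 (minus) and Il17ra at chr6:120463247-120487559 (plus). Ccr6 is at chr17:8236043-8257141 (plus) and Ccl20 at chr1:83116766-83119167 (plus). A nearby near-identical gene, Iltifb, shares sequence with Il22, so that reads common to both could be lost from the counts and the Il22 values are uncertain. Iltifb itself was counted at 331, 32, 135 and 28 UMIs in the 4 libraries.

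The hexamer AGGTCA is a core that many nuclear receptors bind, and 4 of the start regions that hold it are shown, those of Il17a, Il23r, Ccr6 and Ccl20. Each line is the 250 bases before the RefSeq start on the gene's own strand (GRCm38.p6), with AGGTCA or its reverse complement TGACCT in capitals, from chr1:20730655-20730904 (plus), chr6:67491856-67492105 (minus), chr17:8235793-8236042 (plus) and chr1:83116516-83116765 (plus).
Il17a: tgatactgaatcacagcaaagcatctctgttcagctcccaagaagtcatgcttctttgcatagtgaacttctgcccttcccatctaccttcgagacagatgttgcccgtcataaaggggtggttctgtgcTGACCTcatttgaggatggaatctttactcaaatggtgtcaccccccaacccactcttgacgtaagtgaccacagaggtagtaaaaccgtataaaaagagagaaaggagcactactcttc
Il23r: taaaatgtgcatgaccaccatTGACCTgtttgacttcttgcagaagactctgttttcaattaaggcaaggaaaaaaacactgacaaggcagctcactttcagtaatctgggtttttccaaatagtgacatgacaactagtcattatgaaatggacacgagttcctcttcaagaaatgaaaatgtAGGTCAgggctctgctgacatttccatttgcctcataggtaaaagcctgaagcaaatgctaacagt
Ccr6: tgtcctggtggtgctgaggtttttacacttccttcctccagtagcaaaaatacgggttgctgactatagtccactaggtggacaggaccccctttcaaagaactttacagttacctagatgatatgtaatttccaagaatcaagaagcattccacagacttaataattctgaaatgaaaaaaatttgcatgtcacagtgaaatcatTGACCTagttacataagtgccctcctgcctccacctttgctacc
Ccl20: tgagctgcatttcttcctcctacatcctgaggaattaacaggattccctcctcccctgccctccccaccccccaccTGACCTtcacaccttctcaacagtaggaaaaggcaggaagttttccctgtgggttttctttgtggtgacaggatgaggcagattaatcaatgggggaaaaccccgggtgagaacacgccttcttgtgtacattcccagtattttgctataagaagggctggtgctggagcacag
The match lay 120 to 115 bases before the start in Il17a, 44 to 39 in Ccr6 and 174 to 169 in Ccl20, each on the antisense strand. Il23r held 2 matches, 229 to 224 bases before the start on the antisense strand and 66 to 61 on the sense strand. Il17f held a match at 58 to 53 bases on the sense strand. The axis had 7 windows of this length for 6 genes, and 5 windows held a match on either strand, where 14.02% of all 32851 windows of 250 bases did. The window of Il22 and a second window of Ccr6 held none. A match is a description of letters and not a binding site, and no binding was measured.

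Summed over all cells kept, Il17a was highest in Vehicle at 192 CPM (UMIs of the gene per 1000000 UMIs), followed by Ribavirin at 136, Ribavirin-OVA at 62.2 and Vehicle-OVA at 56.7. Il17f, Il22 and Il23r lay in the same order, with 15.01, 21.71 and 5.398 CPM in Vehicle and 3.73, 4.11 and 1.65 CPM in Vehicle-OVA. Il23a went the other way, with 54.0 CPM in Vehicle-OVA and 4.13 to 6.06 CPM in the other libraries. Ccl20 was highest in Ribavirin alone, at 32.9 CPM beside 5.94 to 7.80.

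**Figure D1:**
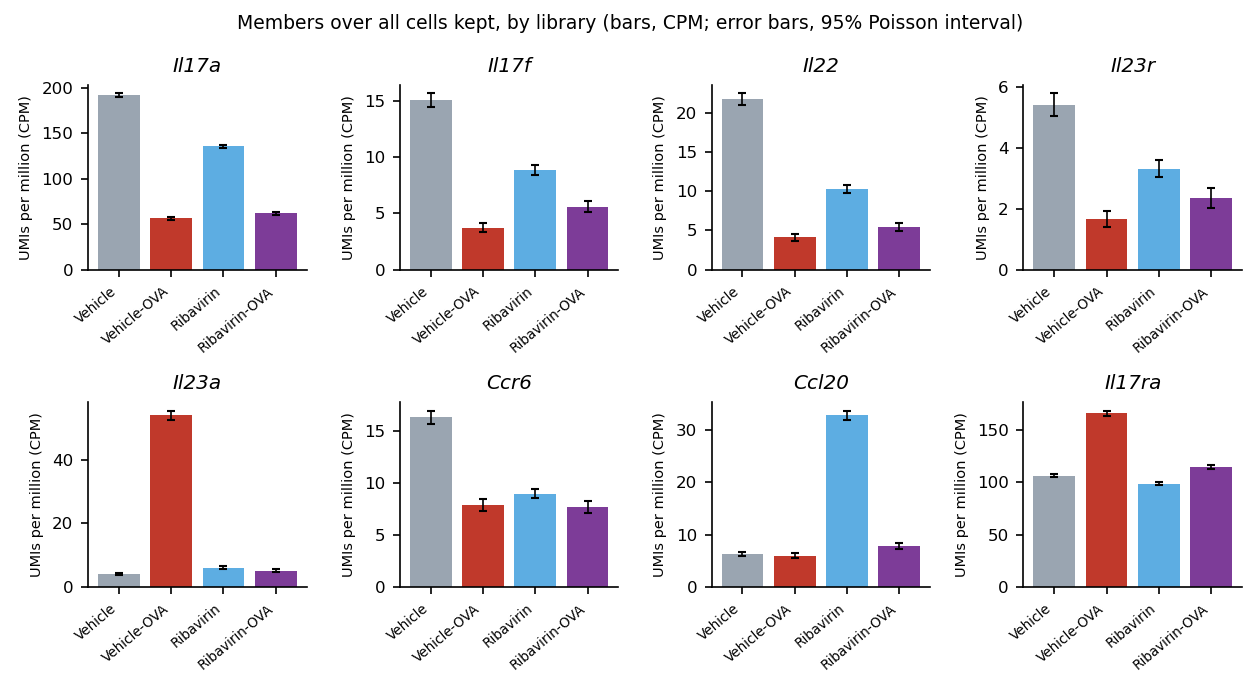
Levels of the 8 genes over all cells kept, 1 panel per gene, with the library on the x axis and CPM on the y axis, each panel with its own scale from 0. Bars are single libraries and error bars are 95% Poisson intervals, for counting error only. Il17a, Il17f, Il22 and Il23r are highest in Vehicle, Il23a in Vehicle-OVA at 54.0 CPM and Ccl20 in Ribavirin at 32.9 CPM.

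A gene was called different in a pair of libraries when the ratio of its CPM values was past 2-fold and the pair held at least 20 of its UMIs. In Vehicle-OVA against Vehicle 5 of the 8 genes were called lower, where 11.7% of all genes tested were, and 1 was called higher, where 13.6% were. The 5 were Il17a, Il17f, Il22, Il23r and Ccr6, and the 1 was Il23a. In Ribavirin-OVA against Ribavirin 2 genes, Il17a and Ccl20, were called lower (3.63% of all genes) and 0 higher (13.6%). In Ribavirin against Vehicle Ccl20 was called higher (16.1% of all genes) and Il22 lower (0.779%). In Ribavirin-OVA against Vehicle-OVA only Il23a was called, as lower (4.21% of all genes), and 0 were called higher (21.9%). The median log2 ratio of the 8 genes was -1.38, -0.58, -0.60 and 0.26 in these pairs, beside 0.0011, 0.43, -0.05 and 0.47 over all genes tested. The pairs share libraries and are therefore not independent of each other.

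Il17a, the signature cytokine of type 17 cells, was carried by T cell-like cells. This class (clusters 2, 10, 21 and 25) held 92.2% of the Il17a UMIs in Vehicle, 87.3% in Vehicle-OVA, 91.6% in Ribavirin and 90.4% in Ribavirin-OVA. Its level there was 1090.5 CPM in Vehicle, 791 in Vehicle-OVA, 1018.4 in Ribavirin and 675 in Ribavirin-OVA. The next was cluster 14, which led with Calca, Foxp3 and Il1rl1 and was left unnamed, at 80.1 to 388 CPM, and its range lay below that of the T cell-like cells. In Vehicle-OVA, 458 Il17a UMIs of cluster 14 came from 8 cells. Orders of classes and clusters are given for those with at least 50 cells in at least 3 libraries. The others of these had means of at most 17.2 CPM over the libraries and ranges that overlapped those of their neighbours in the order. Of those with fewer cells, stromal-like cells of Vehicle were at 78.9 CPM, from 31 UMIs in 1 cell, and cluster 32 of Vehicle at 196 CPM from 6 UMIs.

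**Figure D2:**
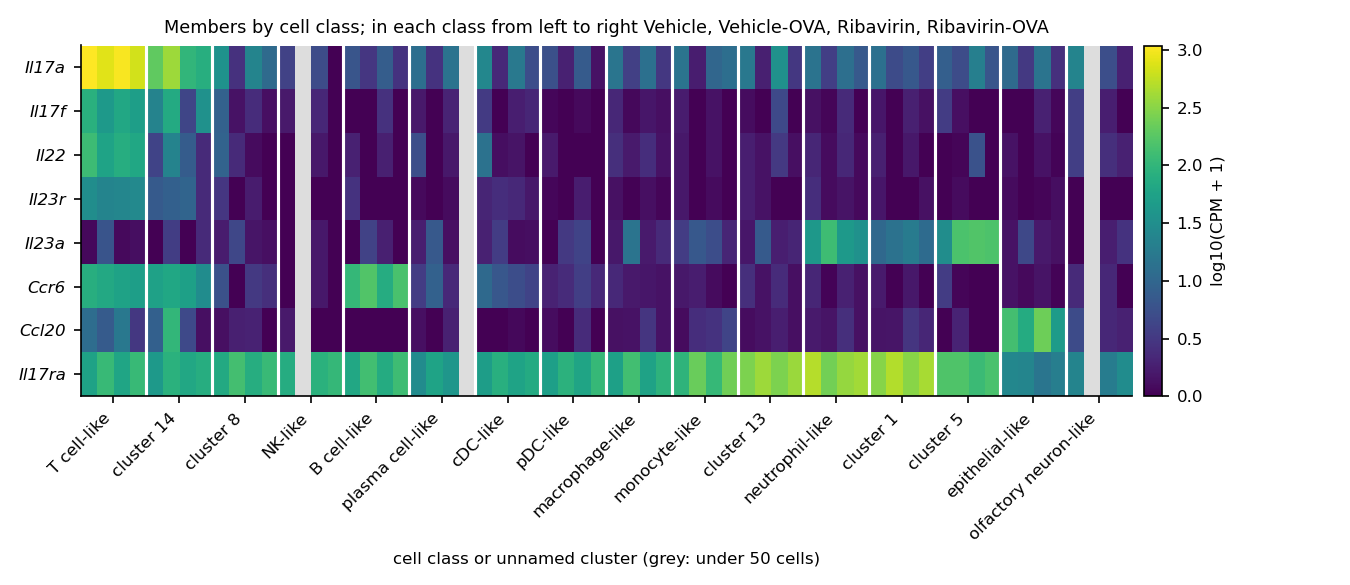
Heat map of the 8 genes (y axis) by cell class or unnamed cluster (x axis), with 4 columns per class for Vehicle, Vehicle-OVA, Ribavirin and Ribavirin-OVA. Colour is log10(CPM + 1) of the summed UMIs and grey marks fewer than 50 cells. Il17a, Il22 and Il23r are brightest in T cell-like cells. Il17f is too, except in Vehicle-OVA, where cluster 14 reaches 70.4 CPM beside 43.6 CPM. Ccr6 is brightest in T cell-like and B cell-like cells, and Il23a in neutrophil-like cells and cluster 5. Ccl20 is brightest in epithelial-like cells, except in Vehicle-OVA, where cluster 14 reaches 102 CPM beside 72.3 CPM. Il17ra is seen in all columns with cells.

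At least 1 Il17a UMI was found in 41.5% of T cell-like cells in Vehicle, 28.8% in Vehicle-OVA, 42.7% in Ribavirin and 31.6% in Ribavirin-OVA, at median depths of 4130, 4674, 4908.5 and 5018 UMIs. The libraries with OVA were thus lower than those without in both arms, at depths that were higher. With every cell thinned to 1000 UMIs the shares were 30.3%, 19.3%, 28.0% and 22.3%. In B cell-like cells, which should lack the gene, 0.837% to 2.62% of cells had a UMI unthinned, at median depths of 3027 to 3862.5 UMIs, and 0.627% to 2.51% of neutrophil-like cells did.

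Among the T cell-like cells with an Il17a UMI the level per cell was much alike, with a mean of 13.6, 14.9, 14.8 and 12.7 UMIs in the 4 libraries and a median of 7, 6, 7 and 6. T cell-like cells were 19.6%, 6.30%, 15.6% and 13.5% of all cells kept, and under vehicle this share differed more than the level per cell. Under ribavirin it did not, and the share of T cell-like cells with an Il17a UMI was 42.7% without OVA and 31.6% with it. Cluster 8, which led with Gzmk, Klrc1 and Xcl1, scored best on the T cell list but was left unnamed and is not in these shares. It was 5.50%, 2.49%, 4.23% and 5.74% of the cells kept. Cells with 5 or more Il17a UMIs numbered 1295 in Vehicle, 194 in Vehicle-OVA, 891 in Ribavirin and 220 in Ribavirin-OVA. They were 5.31% [5.04, 5.60], 1.13% [0.974, 1.30], 4.53% [4.25, 4.83] and 2.51% [2.19, 2.86] of the cells. Of these cells 92.7% to 95.9% were T cell-like, and 98.5% to 100% had a UMI of Cd3d, Cd3e or Cd3g, which encode the CD3 complex. A share of cells depends on all other cells captured, and 48.2% of the Vehicle-OVA cells were in clusters 4 and 5, beside 0.636% to 5.94% in the other libraries.

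**Figure D3:**
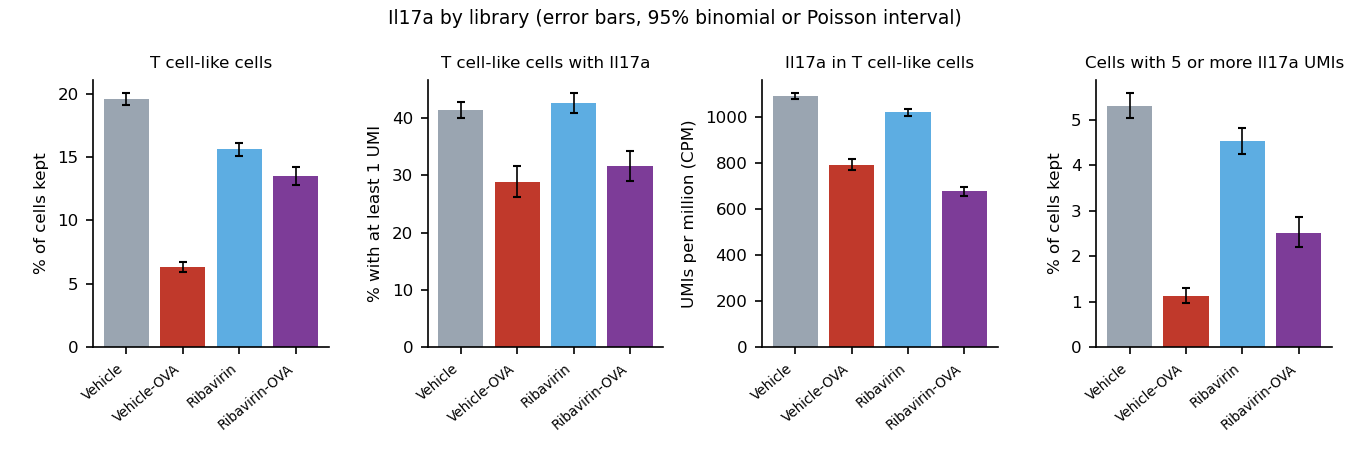
Il17a by library in 4 panels, from left to right the share of T cell-like cells among cells kept (%), the share of T cell-like cells with an Il17a UMI (%), the Il17a level in T cell-like cells (CPM) and the share of all cells with 5 or more Il17a UMIs (%). Bars are single libraries, axes start at 0 and error bars are 95% binomial or Poisson intervals. Vehicle-OVA is lowest in the left and right panels, at 6.30% and 1.13%, while the level in T cell-like cells differs less, from 675 to 1090.5 CPM.

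Over all cells the ratio of Il17a was 0.296 [0.287, 0.305] in Vehicle-OVA against Vehicle and 0.458 [0.444, 0.472] in Ribavirin-OVA against Ribavirin. Within T cell-like cells the ratios were 0.725 [0.703, 0.748] and 0.663 [0.642, 0.684], neither past 2-fold. Ribavirin against Vehicle gave 0.708 [0.696, 0.721] over all cells and 0.934 [0.917, 0.951] within T cell-like cells. Ribavirin-OVA against Vehicle-OVA gave 1.10 [1.06, 1.14] over all cells and 0.853 [0.819, 0.889] within T cell-like cells, on different sides of 1. Without clusters 4 and 5, the log2 ratio over all cells in Vehicle-OVA against Vehicle was -1.29, still past 2-fold. The call in Ribavirin-OVA against Ribavirin was lost with the mean of single-cell CPM (-0.70).

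The T cell-like cells of the libraries were not in the same clusters. Cluster 2 held 90.2% of them in Vehicle and 74.3% in Ribavirin, whereas cluster 10, which led with Kcnc1, Il18r1 and Camk4, held 88.5% in Vehicle-OVA and 83.9% in Ribavirin-OVA. In cluster 2, Il17a was at 1216.0 CPM in Vehicle and 1222.4 in Ribavirin, and at 251 and 313 in the 81 Vehicle-OVA and 121 Ribavirin-OVA cells there. In cluster 10 it was at 876 CPM in Vehicle-OVA and 819 in Ribavirin-OVA, and at 743 and 438 in the 39 Vehicle and 64 Ribavirin cells. Il17a was therefore not lower with OVA in cluster 10, where both libraries with OVA lay above both without, although the interval of the 39 Vehicle cells, [622, 880], reached those of the libraries with OVA. In cluster 21, which led with histone genes, it was at 671, 359, 513 and 75.2 CPM in the 4 libraries. Cluster 25, which led with Blk and Actn2, held 476 Ribavirin cells beside 1 Vehicle and 17 Ribavirin-OVA cells, and its Ribavirin level was 889 CPM. With the clusters drawn at resolution 0.5, only 77 Vehicle-OVA and 148 Ribavirin-OVA cells were called T cell-like, with 1.26% and 4.34% of the Il17a UMIs of those libraries, so that no level in T cell-like cells can be read from that setting.

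T cell-like cells with an Il17a UMI also carried other genes of the axis more often than those without, at median depths of 4667 to 5713.5 against 3838 to 4823 UMIs. Il17f was found in 18.9% against 2.58% in Vehicle, 11.8% against 1.94% in Vehicle-OVA, 14.96% against 3.185% in Ribavirin and 11.5% against 1.73% in Ribavirin-OVA. For Ccr6 the values were 36.0% against 17.3%, 28.1% against 13.3%, 28.8% against 13.1% and 21.1% against 10.3%. Il22 differed less in Vehicle-OVA, at 5.43% against 4.40%, than in Vehicle, at 16.2% against 6.09%. Il23r was found in 13.1% to 17.1% of the cells with an Il17a UMI and in 7.00% to 10.6% of those without. These cells were deeper as well, and the part of depth in the shares was not tested.

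The Il17a cells of the libraries also differed in their lineage genes. Cd4 was found in 64.6% and 53.7% of them in Vehicle and Ribavirin, against 42.3% and 40.6% of the T cell-like cells without an Il17a UMI. In Vehicle-OVA and Ribavirin-OVA it was found in 42.8% and 35.6%, against 45.3% and 38.9%, so that Il17a cells did not carry Cd4 more often there. Cd8a was found in 5.16%, 14.1%, 9.01% and 21.4% of the Il17a cells, against 10.1%, 16.6%, 14.2% and 21.6% of those without. Blk, Sox13 and Cd163l1, which are used to mark gamma delta T cells, showed another order. Blk, a kinase of B cells and of IL-17-making gamma delta T cells, was found in 8.80%, 16.6%, 21.0% and 24.9% of the Il17a cells of Vehicle, Vehicle-OVA, Ribavirin and Ribavirin-OVA, and Sox13, a transcription factor of the same cells, in 2.18%, 5.11%, 6.11% and 14.7%. Cd163l1, a surface receptor that marks such cells, was found in 6.68%, 7.99%, 8.86% and 16.3%. In the T cell-like cells without an Il17a UMI Blk was found in 8.60%, 5.70%, 10.8% and 11.7%. The Vehicle cells with and without an Il17a UMI thus hardly differed in Blk. In the cells without, Sox13 was found in 3.44%, 0.777%, 3.53% and 6.30% and Cd163l1 in 10.6%, 4.66%, 6.60% and 9.64%. In Vehicle both were thus found less often with an Il17a UMI than without. A further gene listed for gamma delta T cells, 5830411N06Rik, did not follow this order. It was found in 1.11%, 2.24%, 2.14% and 5.88% of the Il17a cells and in 0.824%, 2.59%, 1.48% and 1.98% of those without. The median depths of the Il17a cells, 4667, 5194, 5505 and 5713.5 UMIs, lay in the same order as their shares with Blk, Sox13 and Cd163l1. The part of depth was not tested. Of 12 symbols of constant genes of the alpha, beta, gamma and delta chains of the T cell receptor, 0 were found among those listed, so the receptor type of these cells was not read.

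In all libraries 10 genes stood out most among T cell-like cells with an Il17a UMI, by the lowest of the 4 log2 ratios over cells without, of 2622 genes at 50 CPM or more. Il17f led with a lowest log2 ratio of 2.29. The others were Sdc4, Tnfsf11, Nmrk1, Ppp1r14c, Crmp1, Ctla4, Irf4, Il17re and Dhrs3, with lowest log2 ratios of 0.72 to 1.10. Tnfsf11 encodes the cytokine RANKL, Ctla4 an inhibitory receptor, Irf4 a transcription factor of type 17 differentiation and Il17re a subunit of the IL-17C receptor. Irf4 was at 73.7, 125, 67.0 and 136 CPM in the cells with an Il17a UMI of Vehicle, Vehicle-OVA, Ribavirin and Ribavirin-OVA, and at 33.0, 67.5, 36.7 and 61.3 CPM in those without. The same cells gave both sets, so these are descriptions.

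Il17f, the closest relative of Il17a, was counted at 2277, 350, 1377 and 469 UMIs over all cells of Vehicle, Vehicle-OVA, Ribavirin and Ribavirin-OVA, and 73.1% to 90.9% of them were in T cell-like cells. Few cells held much of it with OVA, as the 10 highest cells held 72.6% and 67.8% in Vehicle-OVA and Ribavirin-OVA, and 23.3% and 26.2% in Vehicle and Ribavirin. In cluster 14 of Vehicle-OVA, 83 UMIs came from 1 cell. Within T cell-like cells Il17f was at 84.0, 43.6, 65.7 and 49.6 CPM. The ratios were 0.519 [0.454, 0.591] for Vehicle-OVA against Vehicle and 0.756 [0.669, 0.852] for Ribavirin-OVA against Ribavirin. Without the 0.1% of cells of each library with the most Il17f UMIs, which are 25, 18, 20 and 9 cells, Il17f over all cells was at 9.89, 0.672, 5.53 and 1.90 CPM. Ribavirin-OVA was then past 2-fold below Ribavirin, at a log2 ratio of -1.54 beside -0.66 with them.

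Il22, the cytokine of the type 17 cells that acts on epithelium, was at 21.7, 4.11, 10.2 and 5.48 CPM over all cells. Its ratio was 0.189 [0.170, 0.211] in Vehicle-OVA against Vehicle, 0.536 [0.482, 0.594] in Ribavirin-OVA against Ribavirin and 0.471 [0.4436, 0.5004] in Ribavirin against Vehicle. The latter was within 2-fold with the mean of single-cell CPM, at a log2 ratio of -0.94. T cell-like cells held 86.0% to 95.7% of the UMIs, at 119, 56.5, 77.7 and 62.9 CPM. Among the genes of the axis that T cell-like cells carry, Il22 was the one past 2-fold within the class in Vehicle-OVA against Vehicle, at 0.477 [0.424, 0.534]. That call was lost at resolution 2 (log2 ratio -0.65), with libraries clustered separately (-0.92) and at a mitochondrial limit of 20% (-0.94). As with Il17f, the 10 highest cells held 63.7% and 78.7% of Il22 UMIs in Vehicle-OVA and Ribavirin-OVA, and 27.2% and 30.9% in Vehicle and Ribavirin. Without the 0.1% of cells of each library with the most Il22 UMIs the levels over all cells were 13.02, 0.939, 5.24 and 1.24 CPM, and Ribavirin-OVA was then past 2-fold below Ribavirin, at a log2 ratio of -2.08. In Vehicle, 163 UMIs were in 17 cDC-like cells, a class of dendritic cells, against 0 to 5 UMIs in that class of the other libraries.

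Il23r, the receptor subunit specific to IL-23, was at 5.398, 1.651, 3.301 and 2.34 CPM over all cells, in the same order as Il17a. Within T cell-like cells, which held 84.5% to 91.4% of its UMIs, it was at 29.5, 22.3, 23.5 and 25.7 CPM. No pair was past 2-fold within the class, with ratios of 0.757 [0.624, 0.913] for Vehicle-OVA against Vehicle and 1.09 [0.914, 1.30] for Ribavirin-OVA against Ribavirin. The interval of the latter holds 1, which at this depth does not show that the libraries were alike. Among the other classes and clusters in the order, only cluster 14 had a mean above 1.1 CPM, at 1.28 to 8.65 CPM.

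Il23a, the subunit that IL-23 does not share with IL-12, was counted at 626 UMIs in Vehicle, 5072 in Vehicle-OVA, 946 in Ribavirin and 434 in Ribavirin-OVA. Over all cells the ratio was 13.1 [12.1, 14.3] in Vehicle-OVA against Vehicle and 0.851 [0.758, 0.954] in Ribavirin-OVA against Ribavirin. Ribavirin-OVA against Vehicle-OVA gave 0.0955 [0.0863, 0.105]. Vehicle-OVA thus stood apart from the other libraries, which lay between 4.13 and 6.06 CPM. At least 1 UMI was found in 8.19% of Vehicle-OVA cells and 1.25% to 2.05% of the others.

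Neutrophil-like cells and cluster 5 carried the transcript. Neutrophil-like cells held 68.4%, 64.1%, 70.2% and 41.0% of Il23a UMIs, at 40.3, 123, 43.4 and 33.2 CPM in the 4 libraries. They were 15.9%, 38.9%, 22.7% and 14.6% of the cells kept. Within the class the ratio was 3.06 [2.77, 3.39] in Vehicle-OVA against Vehicle and 0.269 [0.230, 0.313] in Ribavirin-OVA against Vehicle-OVA. The clusters of the class differed in level. Cluster 0, which led with H2-Q10, Lrg1 and Gm13822 and was most of the class in Vehicle and Ribavirin, was at 45.1, 65.1, 47.1 and 48.1 CPM. Cluster 4 was at 164 CPM in its 4482 Vehicle-OVA cells, and at 30.5, 287 and 188 CPM in 23 Vehicle, 45 Ribavirin and 66 Ribavirin-OVA cells, the first of which rests on 2 UMIs. Cluster 20, with the granule genes Camp and Ngp of immature neutrophils, was at 2.10 to 4.15 CPM, and cluster 15, with Mmp8 and Retnlg, at 16.0 to 55.6 CPM. Cluster 5 was at 29.7, 147, 164 and 154 CPM and cluster 1, which led with Siglecf, at 9.54 to 17.4 CPM.

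**Figure D4:**
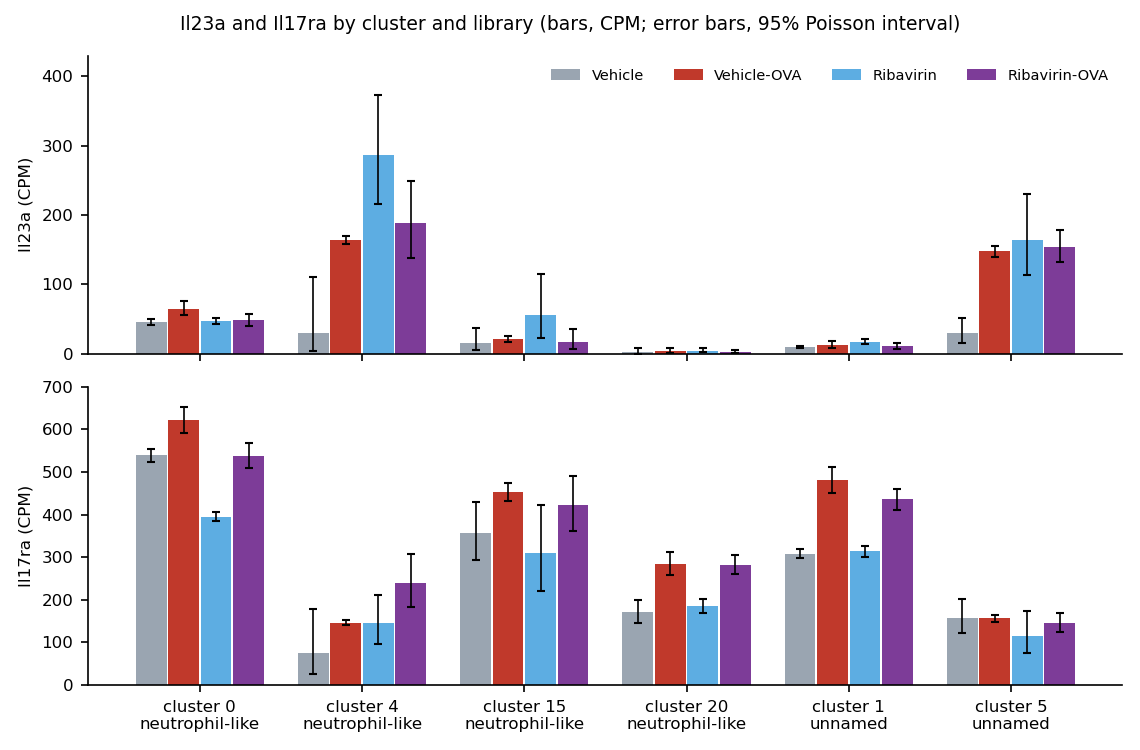
Il23a (upper panel) and Il17ra (lower panel) in CPM on the y axis, for the 4 neutrophil-like clusters and the unnamed clusters 1 and 5 on the x axis, with 1 bar per library and 95% Poisson intervals as error bars, for counting error only. In all libraries but Vehicle Il23a is highest in clusters 4 and 5, where Vehicle-OVA has 8302 cells and the other libraries 125 to 521, and Il17ra is higher in clusters 0, 1, 15 and 20 than in clusters 4 and 5 in each library.

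Clusters 4 and 5 together were 48.2% of the Vehicle-OVA cells and held 84.9% of its Il23a UMIs. In the remaining cells Il23a was at 4.05 [3.73, 4.38] CPM in Vehicle, 11.4 [10.7, 12.3] in Vehicle-OVA, 5.51 [5.15, 5.89] in Ribavirin and 2.54 [2.21, 2.91] in Ribavirin-OVA. Vehicle-OVA remained highest there, at a log2 ratio of 1.5 against Vehicle beside 3.71 with all cells. Macrophage-like cells were also highest in Vehicle-OVA, with 0.580, 13.7, 0.662 and 1.33 CPM from 18, 340, 16 and 25 UMIs. The class lay in different clusters, with 2620, 80, 1895 and 79 of its cells in cluster 3, which led with Vcam1 and C1qb, and 31, 2338, 68 and 1685 in cluster 6, which led with Ccl24 and Arg1. In cluster 6 Il23a was at 14.4 [12.9, 16.0] CPM in Vehicle-OVA and 1.42 [0.909, 2.11] in Ribavirin-OVA, from 337 and 24 UMIs, and at 0 and 2 UMIs in the few cells of Vehicle and Ribavirin. In T cell-like cells Il23a was counted at 4, 30, 4 and 2 UMIs, in 1.66% of the Vehicle-OVA cells, beside 1.26% of its B cell-like cells, a share at that of a class that should lack it.

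Il12b, which encodes the subunit that IL-23 shares with IL-12, went the other way, with 6.80 CPM in Vehicle, 0.948 in Vehicle-OVA, 5.403 in Ribavirin and 1.87 in Ribavirin-OVA. Its ratio in Vehicle-OVA against Vehicle was 0.140 [0.111, 0.173]. The cDC-like cells held 51.7% to 68.2% of its UMIs. UMIs of both subunits were found together in 3 of 304 Vehicle cells with Il23a, 2 of 1412 in Vehicle-OVA, 2 of 403 in Ribavirin and 0 of 146 in Ribavirin-OVA. The last count allows a share of up to 2.50% of cells with UMIs of both and sets no limit on cells that express both, since Il12b itself was found in 172, 13, 114 and 18 cells. At this depth per cell the 2 transcripts were rarely read in the same cell.

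Ccr6, the receptor of CCL20, was at 16.3, 7.85, 8.97 and 7.64 CPM over all cells, with Vehicle above the other 3 libraries. The ratio in Vehicle-OVA against Vehicle was 0.482 [0.443, 0.523], and without clusters 4 and 5 the log2 ratio was -0.57, which is not past 2-fold, beside -1.05 with all cells. T cell-like cells held 79.2%, 53.7%, 74.9% and 54.0% of its UMIs, at 79.6, 67.4, 55.0 and 49.5 CPM. There the ratio was 0.847 [0.759, 0.944] in Vehicle-OVA against Vehicle and 0.691 [0.641, 0.745] in Ribavirin against Vehicle, so that within this class both libraries with ribavirin lay below both with vehicle. With each library clustered on its own, the OVA ratio under vehicle turned to a log2 value of 0.10.

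B cell-like cells were the highest class for Ccr6, a receptor known on B cells, at 105 [86.9, 126], 161 [137, 188], 75.3 [60.4, 92.8] and 145 [115, 180] CPM in the 4 libraries. These values rest on 80 to 161 UMIs, and both libraries with OVA lay above both without, with intervals of Vehicle and Ribavirin-OVA that overlap. The ranges of B cell-like and T cell-like cells overlapped, as did those of T cell-like cells and cluster 14, which was at 29.2 to 63.6 CPM. A UMI of Ccr6 was found in 17.05% to 33.96% of B cell-like cells, at median depths of 3027 to 3862.5 UMIs, and in 0.0299% to 0.269% of neutrophil-like cells, at 2105 to 3361.

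Ccl20, the chemokine that CCR6 binds, was at 6.36, 5.94, 32.9 and 7.80 CPM over all cells. The ratio was 5.17 [4.82, 5.54] in Ribavirin against Vehicle and 0.237 [0.219, 0.258] in Ribavirin-OVA against Ribavirin. Epithelial-like cells (clusters 19, 24 and 29) held 65.3%, 65.0%, 91.3% and 94.05% of its UMIs. They had been retained in a preparation of CD45+ cells, as 308, 160, 728 and 363 cells or 1.26%, 0.929%, 3.70% and 4.14% of the cells kept. In B cell-like cells Ccl20 was at 0 UMIs in all libraries. Next to epithelial-like cells in the order was cluster 14, at 0.32 to 102 CPM, and the ranges overlapped. The highest value of cluster 14 was in Vehicle-OVA, above the 72.3 CPM of epithelial-like cells there, and 1 cell held 118 of its UMIs.

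Within epithelial-like cells Ccl20 was at 134, 72.3, 235 and 44.96 CPM in the 4 libraries. At least 1 UMI was found in 15.6%, 16.9%, 29.1% and 17.1% of the cells, at median depths of 10545, 25682, 20788.5 and 31279 UMIs. A few cells carried most of it, and the highest cell of Ribavirin alone held 1400 UMIs of 4677. Without the highest cell of each library the levels were 89.2, 61.7, 165 and 38.8 CPM, with Ribavirin highest. Without the 5% of the class with the most Ccl20 UMIs, which are 16, 8, 37 and 19 cells, they were 19.4, 15.8, 46.5 and 7.13 CPM, a choice made after seeing the data. Cluster 19, with the secretory genes Tff2, Reg3g and Bpifa1, held 120, 94, 384 and 254 of the cells and cluster 29, with the tuft cell genes Trpm5 and Avil, 83, 8, 96 and 17, so the make-up of the class differed between libraries.

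**Figure D5:**
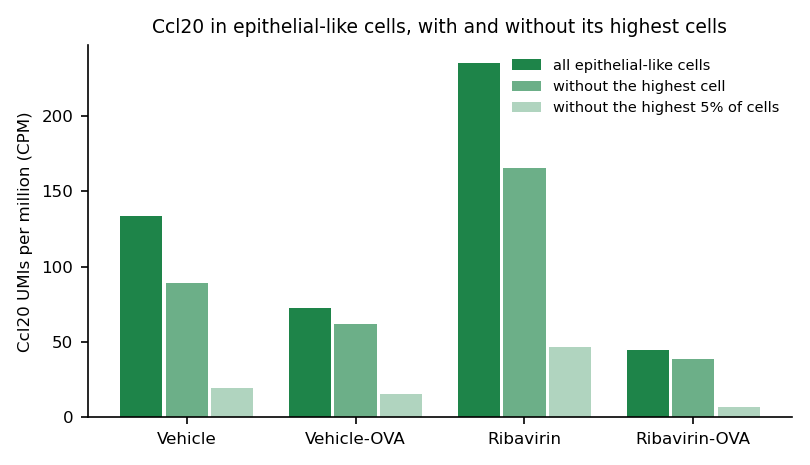
Ccl20 in epithelial-like cells in CPM (y axis) by library (x axis), over all such cells, without the cell with the most Ccl20 UMIs and without the 5% of cells with the most. Bars are single libraries from 160 to 728 cells and start at 0. Ribavirin is highest in each set, at 235, 165 and 46.5 CPM.

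T cell-like cells carried some Ccl20 too, at 11.2, 6.47, 15.6 and 2.14 CPM from 275, 38, 298 and 15 UMIs. The ratio was 0.137 [0.0756, 0.229] in Ribavirin-OVA against Ribavirin and 0.331 [0.169, 0.616] in Ribavirin-OVA against Vehicle-OVA. The cells with an Il17a UMI had a Ccl20 UMI in 2.07%, 2.88%, 3.66% and 1.07% of cases, against 0.358%, 0.130%, 0.683% and 0.124% of the other T cell-like cells. The Ccl20 ratio of Vehicle-OVA against Vehicle in T cell-like cells changed sign between clusterings and is not read.

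Il17ra, the common receptor chain of IL-17A and IL-17F, was found in 38.6%, 41.6%, 42.8% and 49.0% of all cells, at 106, 166, 98.8 and 114 CPM. Both libraries with OVA lay above those without, with ratios of 1.56 [1.53, 1.59] under vehicle and 1.16 [1.13, 1.19] under ribavirin, neither past 2-fold. Over all genes tested the median log2 ratio was 0.0011 under vehicle and 0.43 under ribavirin, beside 0.64 and 0.21 for Il17ra. Cluster 1, neutrophil-like cells and cluster 13, which led with Vcan and Ace, were the highest, at 308 to 481, 247 to 498 and 273 to 392.4 CPM, and their ranges overlapped. Epithelial-like cells were the lowest in the order, at 14.05 to 24.39 CPM, and cluster 28, which has too few cells to be in it, was at 2.76 to 4.65 CPM. Neutrophil-like cells held 34.3% of the UMIs of the 4 libraries together, macrophage-like cells 13.9% and cluster 1 12.8%.

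Outside the neutrophil-like class, Il17ra was compared in 5 immune classes. In T cell-like cells it was at 55.7, 109, 60.6 and 112 CPM, with ratios of 1.97 [1.79, 2.16] and 1.84 [1.68, 2.02] for OVA under vehicle and under ribavirin. Both libraries with OVA lay above both without in cluster 2, at 60.3, 135, 64.5 and 127 CPM, in cluster 10, at 61.4, 112, 65.6 and 122 CPM, and in cluster 21. In monocyte-like cells it was at 94.9, 220, 107 and 240 CPM and in macrophage-like cells at 51.6, 130, 54.6 and 89.9 CPM. The cDC-like cells were at 48.1, 81.9, 56.3 and 71.4 CPM and the pDC-like cells, the plasmacytoid dendritic cells, at 51.0, 87.9, 58.9 and 107 CPM. In each of these classes both libraries with OVA lay above both without. For macrophage-like cells this did not hold in each cluster, as cluster 3 was at 48.7, 43.2, 50.9 and 65.0 CPM and cluster 6 at 66.3, 134, 162 and 91.4 CPM, so that the values of the class compare mostly cluster 3 without OVA and cluster 6 with OVA. Over all genes tested the median log2 ratio for OVA was 0.44 and 0.42 in T cell-like cells, beside 0.98 and 0.88 for Il17ra.

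In neutrophil-like cells Il17ra went the other way under vehicle, with 498 CPM in Vehicle, 247 in Vehicle-OVA, 358 in Ribavirin and 407 in Ribavirin-OVA. The ratio was 0.497 [0.480, 0.516] for OVA under vehicle and 1.14 under ribavirin. The former is just past 2-fold and was not at resolution 2 (log2 ratio -0.89) or with a gate on marker UMIs (-0.72). Over all genes tested in the class the median log2 ratio was -0.63 under vehicle and 0.40 under ribavirin, beside -1.01 and 0.19 for Il17ra. Inside each cluster of the class, however, Vehicle-OVA lay above Vehicle, at 622 against 539 CPM in cluster 0, 147 against 76.2 in cluster 4 (the latter from 5 UMIs), 453 against 358 in cluster 15 and 284 against 170 in cluster 20. The counting intervals overlapped in cluster 4, where the 5 UMIs of Vehicle allow 24.75 to 177.9 CPM, and did not overlap in clusters 0, 15 and 20. Cluster 4, the lowest of the 4 in each library, was 4482 of the 6698 neutrophil-like cells of Vehicle-OVA and 23 of the 3876 of Vehicle. In cluster 1 Il17ra was at 308, 481, 314 and 435 CPM and in cluster 5 at 158, 157, 116 and 145 CPM. Il17rc, which encodes the chain that pairs with IL-17RA, was scarce in these cells sorted for CD45, at 2.93, 2.34, 4.49 and 5.94 CPM over all cells.

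Within T cell-like cells, 1 of the 8 genes, Il23a, was called higher in Vehicle-OVA against Vehicle (19.4% of all genes) and 1, Il22, lower (5.53%). In Ribavirin-OVA against Ribavirin 1 of 7 genes with enough UMIs, Ccl20, was called lower (5.03% of all genes) and 0 higher (15.1%). In Ribavirin against Vehicle 0 of 7 were called, where 3.37% of all genes were higher and 0.492% lower. In Ribavirin-OVA against Vehicle-OVA 2 of 8, Il23a and Ccl20, were called lower (3.02% of all genes) and 0 higher (2.58%). The median log2 ratio over the genes of the axis was -0.43, -0.30, -0.33 and -0.10 in these pairs, beside 0.44, 0.42, 0.03 and 0.04 over all genes tested in T cell-like cells.

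The other genes of the pathway were grouped by role. Of 11 products that IL-17 or IL-22 induces, 7 were past 2-fold higher and 0 lower in Vehicle-OVA against Vehicle over all cells, where 13.6% of all genes tested were higher and 11.7% lower. Csf3, which encodes the granulocyte growth factor G-CSF, was at 160 against 1.53 CPM, a ratio of 105 [91.8, 120]. The neutrophil chemokines Cxcl2 and Cxcl1 were at 11813.7 against 1683.1 and 95.2 against 17.5 CPM. The list holds genes that neutrophils themselves express, such as S100a8, S100a9 and Mmp9, and neutrophil-like cells were 38.9% of Vehicle-OVA and 15.9% of Vehicle cells. Cluster 4 led with Csf3, and its part in the list was not tested.

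Under ribavirin the same list gave 0 of 11 higher (13.6% of all genes) and 4 lower (3.63%) in Ribavirin-OVA against Ribavirin, with Cxcl5 at 29.4 against 113 CPM and Cxcl2 at 1124.5 against 2987.3. In Ribavirin against Vehicle 5 of 11 were higher (16.1% of all genes), with Csf3 at 6.499 against 1.53 CPM, the epithelial antimicrobial lectin Reg3g at 2541.8 against 635 and Cxcl5 at 113 against 32.1. Epithelial-like cells were 3.70% of Ribavirin and 1.26% of Vehicle cells. In Ribavirin-OVA against Vehicle-OVA 6 of 11 were lower (4.21% of all genes), with Csf3 at a ratio of 0.0255 [0.0228, 0.0284], and Reg3g was the 1 higher at 3.82 [3.79, 3.85].

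Of 8 genes listed as inducers of type 17 cells, 4 were higher (13.6% of all genes) in Vehicle-OVA against Vehicle, and 1, Il12b, was lower (11.7%). Among the higher, Il6 was at 28.5 against 4.16 CPM, Il1a at 617 against 92.4 and Ebi3 at 48.2 against 21.0. Ebi3 was counted with the list, although it is not an established inducer of type 17 cells. In Ribavirin-OVA against Ribavirin 0 were higher (13.6% of all genes) and 3 lower (3.63%), namely Il12b, Il1a and Il1b. Of 9 regulators 3 were higher in Vehicle-OVA against Vehicle, namely Nfkbiz, Hif1a and Stat3, and 0 were lower. Of 11 surface genes, Tmem176b, Tmem176a and Il1r1 were lower over all cells and Cd44 was higher in Vehicle-OVA against Vehicle. In Ribavirin-OVA against Ribavirin 0 of the 11 were past 2-fold in either direction over all cells.

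Within T cell-like cells the counts were others. In Vehicle-OVA against Vehicle 9 of 11 products were higher (19.4% of all genes) and 1 lower (5.53%). Csf3 was at 23.3 against 0.0813 CPM and Cxcl2 at 1294.0 against 53.6. Of 6 genes listed as inducers with enough UMIs 5, Ebi3 among them, were higher and 0 lower, and Il1b was at 641 against 104 CPM. In Ribavirin-OVA against Ribavirin 1 of 10 products was higher and 0 lower, and 1 of 6 inducers was higher and 1 lower. In Vehicle-OVA against Vehicle 4 of 9 regulators were higher (19.4% of all genes) and 0 lower (5.53%), with Nfkbiz at 439.5 against 101 CPM, Hif1a at 701 against 268 and Stat3 at 364 against 142. Of the 11 surface genes 2, Cd44 and Il21r, were higher and 0 lower. In Ribavirin-OVA against Ribavirin 0 of 9 regulators were higher (15.1% of all genes) and Batf was lower (5.03%), at 40.9 against 105 CPM. Of the surface genes 3, Il18r1, Cd44 and Ccr2, were higher, at ratios of 2.32, 2.18 and 2.06, and 0 were lower. The T cell-like cells with and without OVA lay mostly in different clusters, as given above. Over all Vehicle-OVA cells Csf3 was at 160, Cxcl2 at 11813.7, Il1b at 7820.4 and Nfkbiz at 1565.5 CPM. How much RNA of other cells entered the T cell-like values was not tested.

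Among the receptors and adaptors 8 of 9 genes had enough UMIs over all cells. In Vehicle-OVA against Vehicle Traf6 and Il10rb, a signalling adaptor and a chain of the IL-22 receptor, were higher (13.6% of all genes) and Il17re was lower (11.7%). In Ribavirin-OVA against Ribavirin Il17rb, a chain of the IL-25 receptor, was higher (13.6% of all genes) at 7.31 against 2.02 CPM. In Ribavirin-OVA against Vehicle-OVA 4 of 8 were higher (21.9% of all genes, whose median log2 ratio was 0.47), with Il17rb at a ratio of 3.31, Il17rd at 3.08 and Il17rc at 2.54, and Il10rb was lower (4.21%). Of the 4 other ligands of the family 2 were read, and Il25, a product of tuft cells, was at 0.128 CPM in Vehicle-OVA against 1.25 in Vehicle, with 8 and 83 cells in cluster 29, which has tuft cell genes.

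Over 44 sums of a class in a library, the genes whose log2(CPM + 1) was most like that of Il17a were Actn2 (Pearson r = 0.949), Cd40lg (0.948) and Il17f (0.924). Il22 had Cd40lg (0.961), Il17f and Actn2 nearest, and Il23r had Apol7b (0.967), Gm9961 and Gm14718. For Il23a they were Gm5483 (0.918), Il1rap (0.913) and Tnfaip6 (0.909), and for Ccr6 Blk (0.920) came first. Ccl20 was most like Klk13 (0.916) and Il17ra most like Rap2c (0.931). The 44 points share 4 libraries and the same classes, so the values are a description of likeness among 14646 genes.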

How the data were processed

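CD45+ cells of mouse nasal mucosa were profiled on the 10x Chromium system. The authors made UMI counts per gene and barcode with Cell Ranger 5.0.0 on mm10 (per the submitters' processing notes) and deposited the counts of called cells, with 10311 to 28277 barcodes and 91742940 to 171873110 UMIs per library. The labels name magnetic enrichment and the series text flow sorting.

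Cells with at least 200 genes, 500 UMIs and at most 10% mitochondrial UMIs were kept, and doublets marked by Scrublet (0.556% to 5.27% per library) were removed. The marked shares were below the 4.12% to 11.3% expected, so doublets may remain. Cells were clustered with scanpy 1.11.5 and leidenalg 0.10.2 (2000 variable genes without the 8 genes of the axis, 30 components, 15 neighbours, resolution 1) and named from marker lists. Trac and Trbc2 of the T cell list were not found, and a rule added after the clusters were seen left cluster 14 unnamed. For each class, a library's UMIs were added up and scaled to CPM, with exact Poisson, conditional binomial (ratios) and Clopper-Pearson intervals (scipy 1.17.1). The scripts were tested on simulated data. With 1 library per group no test between groups was made. The genes and lists were chosen with earlier results of these data known. Named were all 8 genes and 10 genes of Il17a cells, with genes taken from the 3 largest and 3 smallest ratios of each pathway list. Genes were also taken from the 3 most alike genes of each member. A gene of the list of regulators is not reported here. Promoter windows are from RefSeq.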

Additional observations from a re-analysis of the deposited data

Results flagged for a closer look

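The ratios in this section are log2 ratios between single libraries, the differences between them were not tested, and the pairs being compared share no library. Il23a over all cells was 3.71 for OVA under vehicle and -0.23 under ribavirin, a difference of 3.945 with the signs opposed. The same 4 libraries read as ribavirin without and with OVA gave 0.56 and -3.39, whose difference is the same by arithmetic. In neutrophil-like cells the OVA values of Il23a were 1.61 and -0.39, which differ by 2.00.

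The ratio of ribavirin over vehicle in all cells had opposite signs without and with OVA for 4 genes of the T cells. Il17a gave -0.50 without and 0.13 with OVA, a difference of -0.63. Il17f gave -0.77 and 0.58, a difference of -1.35. Il22 gave -1.09 and 0.41, a difference of -1.499, and Il23r -0.71 and 0.50, a difference of -1.21. T cell-like cells were 19.6%, 6.30%, 15.6% and 13.5% of the cells of Vehicle, Vehicle-OVA, Ribavirin and Ribavirin-OVA, and their part in these signs was not tested.

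In neutrophil-like cells Il17ra gave -1.01 for OVA under vehicle and 0.19 under ribavirin, a difference of -1.19. For ribavirin it gave -0.48 without and 0.72 with OVA, whose difference is the same by arithmetic. Over all genes tested in the class the medians were -0.63 and 0.40 for OVA and -0.22 and 0.86 for ribavirin, with the same signs. Ccl20 for ribavirin gave 0.81 without and -0.69 with OVA in epithelial-like cells, a difference of 1.498, and 0.48 and -1.60 in T cell-like cells, a difference of 2.08, the latter from 15 UMIs in Ribavirin-OVA.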

How the results depend on the processing

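No paired analysis was possible because each group had 1 library. Values here are log2 ratios, and 650 values other than counts of genes called were set beside the main ones. Of these, 369 stayed within the counting interval and 255 moved outside it. The other 26, listed below, changed sign from a main ratio whose counting interval left out 1. Sign changes of ratios whose interval held 1 are not among the 26. In T cell-like cells, Ribavirin-OVA against Vehicle-OVA, Il17f and Il22 are examples, at 0.19 and 0.15 with lowest values of -2.50 and -1.27. The alternatives without clusters 4 and 5, without the 10 highest cells of each gene and without the highest 0.1% of each library were chosen after seeing the data. Leaving out 10 cells takes a larger share of the libraries with fewer cells.

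Over all cells, Ribavirin-OVA against Vehicle-OVA turned for Ccl20 to -0.0042 at a mitochondrial limit of 20% and to -0.027 without clusters 4 and 5, for Il17a to -0.32 and for Il22 to -0.035 without these clusters, and for Il22 to -0.36 without its 10 highest cells, beside 0.40 without the highest 0.1%. Il17ra in Ribavirin against Vehicle turned to 0.031 with at least 2000 UMIs per cell, and Il23a in Ribavirin-OVA against Ribavirin to 0.032 at a limit of 5% and to 0.15 as a mean of single-cell CPM. In T cell-like cells, Vehicle-OVA against Vehicle turned for Ccl20 to 2.28 at resolution 0.5, 1.32 when libraries were clustered separately and 1.71 (1.705) with a gate on marker UMIs, for Ccr6 to 0.069 at resolution 2 and 0.10 separately, and for Il17f to 1.37 at resolution 0.5. Ribavirin-OVA against Vehicle-OVA turned there to 0.76 for Il17a and 0.0011 for Ccr6 at resolution 0.5, where T cell-like cells were few in the libraries with OVA. Il23a in Ribavirin-OVA against Ribavirin turned in neutrophil-like cells to 0.16 at resolution 0.5, 0.14 at the 20% limit, 0.21 with doublets kept and 0.30 with the gate, and in macrophage-like cells to -0.53 at resolution 0.5, -0.61 separately, -0.44 with doublets and -0.023 with the gate. Ccl20 in epithelial-like cells for OVA under vehicle turned to 0.28 at the 20% limit and 0.16 with the gate. The cause was not tested in these cases.

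Counts of genes past the fold over all cells moved from 2 to 1 (mean CPM) or 5 (fold 1.5) in Ribavirin against Vehicle, from 2 to 1 (mean CPM), 4 (fold 1.5), 4 (without the 10 highest cells) or 4 (without the highest 0.1%) in Ribavirin-OVA against Ribavirin, and from 1 to 4 at the 5% limit, 4 with mean CPM and 3 without the highest 0.1% in Ribavirin-OVA against Vehicle-OVA. In T cell-like cells they moved from 0 to 1 with mean CPM, fold 1.5 or resolution 0.5 in Ribavirin against Vehicle, from 1 to 3 (fold 1.5, gate) or 2 (resolution 0.5, separate clustering, doublets) in Ribavirin-OVA against Ribavirin, from 2 to 1 (at least 50 UMIs, 20% limit, doublets) in Ribavirin-OVA against Vehicle-OVA, and from 2 to 5 (fold 1.5), 6 (resolution 0.5) or 1 (at least 50 UMIs, resolution 2, 20% limit, doublets) in Vehicle-OVA against Vehicle. Depth limits Il23a in T cell-like cells and Ccl20 outside epithelial-like cells, which rest on few UMIs.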
